A study of Homo sapiens with 4 samples.

Results

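The histone genes of the count table were taken as every gene whose symbol follows the older names for replication-dependent histones (HIST1 to HIST4, 31 genes) or for replacement variants (H2AF, H3F3 and H1F, 11 genes), with symbols ending in PS or in P and a number left out as pseudogenes. This gave 42 of 24014 genes. The table was made by RNA-seq of SK-N-SH, a human neuroblastoma cell line, to ask what the long non-coding RNA AP1AR-DT changes when it is raised in these cells. The control cells (2 libraries) were transduced with an empty lentivirus vector and are called wild type in the labels, and the AP1AR-DT_OE cells (2 libraries) were transduced with a lentivirus carrying AP1AR-DT, which the labels name AC109347.1, so both groups carry a viral vector. For AP1AR-DT_OE 2 the title and the other labels differ in the number that ends the name of this RNA. This library was grouped by its title, and it had 1065 counts of AP1AR-DT. No source states the promoter of the vector, the time after transduction, or whether the libraries came from separate cultures, so p-values measure the spread between these samples, which may be technical.

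Histones are the proteins that DNA is wound around. The replication-dependent genes lie in clusters and supply the bulk of H1, H2A, H2B, H3 and H4 while DNA is copied in S phase. Their mRNAs classically end in a short stem-loop in place of a poly(A) tail, and this stem-loop is bound by SLBP, the protein that guides their processing and translation. Replacement variants are made outside S phase as well, are mostly polyadenylated, and serve particular places in chromatin: H2A.Z at promoters, H3.3 in transcribed regions, H2A.X at broken DNA, macroH2A in silent chromatin, and H1.0 in cells that have stopped dividing. Some replication-dependent genes are known to give polyadenylated transcripts too, and the amount of histone mRNA in a library therefore depends on how RNA was selected. The labels name a TruSeq RNA kit and no selection step for these cells.

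To see which members carry the stem-loop, the canonical transcripts of GENCODE 44 were searched for a stem of 6 bases that starts with GG, a loop of 4 bases that starts with TTT, and the exact reverse complement of the stem. The structure was found in 27 of 31 HIST genes (87.1%) and in 1 of 11 replacement genes, against 21 of 23912 other genes (0.0878%). The sequences below are those of the most abundant HIST genes, of an H4 gene, and of the members whose loop or stem stands apart, because they show what the classes share and where they differ. They are read 5′ to 3′ as DNA from the transcript, and the capitals mark stem, loop and stem.
HIST1H2BK: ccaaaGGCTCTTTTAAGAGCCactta
HIST3H2A: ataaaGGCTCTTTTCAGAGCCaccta
HIST1H1C: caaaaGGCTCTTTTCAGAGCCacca
HIST2H2BE: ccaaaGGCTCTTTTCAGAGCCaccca
HIST1H2AC: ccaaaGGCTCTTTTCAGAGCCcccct
HIST1H4H: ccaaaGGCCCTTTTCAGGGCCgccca
HIST2H2AC: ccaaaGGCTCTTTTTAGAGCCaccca
H2AFX: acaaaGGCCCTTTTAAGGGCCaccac

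Of the 28 stem-loops, 16 had the form seen in HIST2H2BE and 6 the form seen in HIST1H2BK, which differ in the last base of the loop. All 4 HIST H4 genes carried the stem printed for HIST1H4H, which no other HIST gene had. HIST2H2AC had a loop of its own, and H2AFX, the gene of H2A.X, joined the H4 stem to the loop of HIST1H2BK. In H2AFX the stem-loop lay 1024 bases before the end of the canonical transcript and in HIST2H2BE it lay 1729 bases before it, while in the other canonical transcripts that hold one it lay at most 6 bases from the end. The 4 HIST genes in which no such structure was found were HIST1H2AG, HIST2H2BA, HIST2H2BD and HIST3H2BA, and GENCODE classes the last 3 of these as pseudogenes although their symbols pass the rule.

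The count table was summarised first by library. Totals ran from 21988065 to 26184599 counts and 19833 to 21280 genes had a count above 0, and no library was a copy of another. AP1AR-DT, listed as RP11-73K9.2, had 3 and 18 counts in the controls, against 680 and 1065 in AP1AR-DT_OE. Of the adrenergic (neuroblast-like) markers, 11 of 12 were in the table and 10 averaged 50 normalized read counts or more, as did all 12 mesenchymal markers, so markers of both states known from this line were detected. Their summed levels overlapped between the groups, at 25625 to 32005 for the adrenergic and 155660 to 210849 for the mesenchymal markers over the libraries, and in bulk RNA fewer cells of a kind and less RNA per cell cannot be told apart. Low values piled up at multiples of 4, so about 4 counts stand for a pair of reads, and a count of 0 allows up to 3 read pairs, or 12 counts.

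Of the genes that the table holds, the replacement variants had far more counts than the HIST genes in every library. Their normalized read counts, that is counts divided by the DESeq2 size factor of the library, summed to 85732 in control 1, 70596 in control 2, 88943 in AP1AR-DT_OE 1 and 80310 in AP1AR-DT_OE 2. The 31 HIST genes summed to 8756, 8248, 8642 and 8213 in the same order, or 0.0332% to 0.0408% of all counts. The replacement sum was thus 9.79 and 8.56 times the HIST sum in the controls and 10.3 and 9.78 times in AP1AR-DT_OE. Per kilobase of canonical transcript the ratio was 4.03 and 3.46 in the controls, against 4.27 and 3.98 in AP1AR-DT_OE. The groups overlapped on both scales. HIST genes outside the table are not in these sums, and the labels name no RNA selection, on which HIST counts depend. The fold change of the HIST sum over the replacement sum was -0.13 on the log2 scale, against a spread of this ratio between libraries of a group of 0.104, and no test was made of it.

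**Figure D1:**
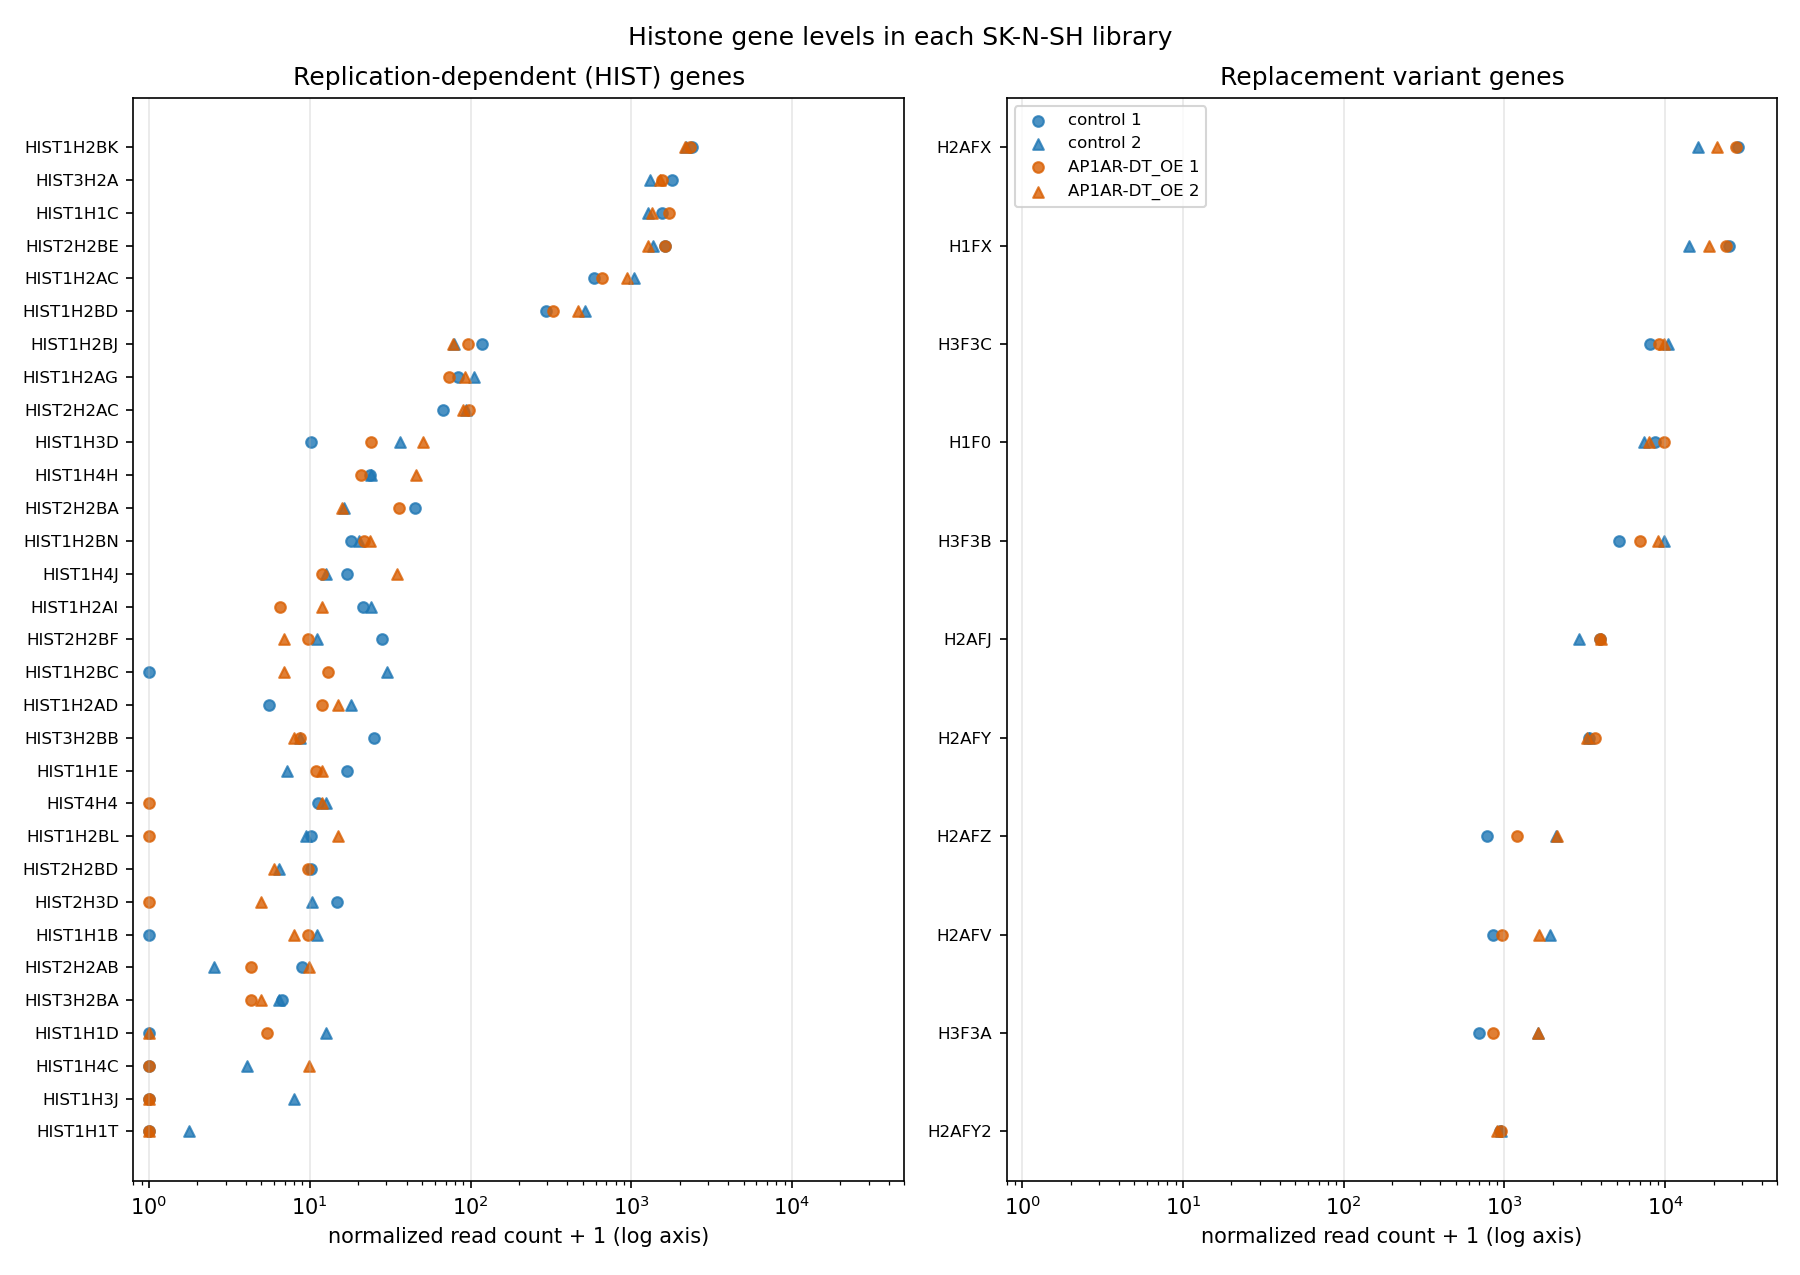
Normalized read count plus 1 of each histone gene (log axis) in the 4 libraries, with colour for the group and shape for the library number, HIST genes on the left and replacement genes on the right. The lowest value of a replacement gene is 696 (H3F3A in control 1), 9 HIST genes have a lowest value of 66.1 or more, and the other 22 HIST genes have at most 50 counts in any library.

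A few HIST genes held nearly all of the HIST signal. HIST1H2BK, an H2B gene at chr6:27146361-27146855 (GRCh38, as the table gives all positions), had normalized read counts of 2383 and 2187 in the controls, against 2329 and 2169 in AP1AR-DT_OE, 26.8% of the HIST sum. HIST3H2A, an H2A gene at chr1:228456979-228457873, had 1803 and 1310 against 1553 and 1507. HIST1H1C, the gene of linker histone H1.2 at chr6:26055740-26056470, had 1561 and 1277 against 1712 and 1336. HIST1H2BK spread little over the libraries, and the groups of all 3 genes overlapped. HIST2H2BE, an H2B gene at chr1:149884459-149886652, had 1610 and 1367 against 1610 and 1263. HIST1H2AC had 582 and 1045 against 654 and 938, and HIST1H2BD, of the same cluster, had 295 and 516 against 327 and 463. In both of these the libraries numbered 2 were the higher ones within each group. Together the 6 genes made up 93.9% of the HIST sum.

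The next 3 HIST genes were close to each other in level. HIST1H2BJ had normalized read counts of 116 and 77.9 in the controls, against 95.4 and 76.4 in AP1AR-DT_OE. HIST1H2AG had 82.0 and 103 against 72.4 and 91.3. HIST2H2AC had 66.1 and 92.6 against 96.5 and 88.3. The other 22 HIST genes had mean normalized read counts from 0.193 to 29.3, and no library gave any of them more than 50 counts. Of these, 9 had a count of 0 in at least 1 library, and 7 were at or under 12 counts in all of them, so a difference between the groups was not detectable at this depth.

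The HIST H3 and H4 genes that the table holds had few counts in every library. H3 and H4 genes outside the table were not assessed. Of the stretches as long as a read, 95.5% in HIST1H3D and 88.75% in HIST1H4J also occur in other genes. In the other H3 and H4 members it was at most 13.75% (HIST2H3D). How the counting shared such reads is not stated, so the low counts of HIST1H3D and HIST1H4J may not show how much of their RNA was present. The 3 HIST H3 genes summed to normalized read counts of 22.8 and 51.7 in the controls, against 23.0 and 53.6 in AP1AR-DT_OE. HIST1H3D, the highest of them, had 8 and 46 counts against 21 and 50. The 4 HIST H4 genes summed to 49.0 and 49.4 against 30.7 and 98.3. HIST1H4H had 20 and 30 counts in the controls, against 18 and 45 in AP1AR-DT_OE, HIST1H4J had 14 and 15 against 10 and 34, and HIST4H4 had 9 and 15 against 0 and 11. The linker genes other than HIST1H1C were as low, with 14 and 8 counts against 9 and 11 for HIST1H1E and 0 and 13 against 8 and 7 for HIST1H1B. In contrast, the HIST H2B genes summed to 4541 and 4249 against 4458 and 4050, and the HIST H2A genes to 2566 and 2593 against 2396 and 2658.

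**Figure D2:**
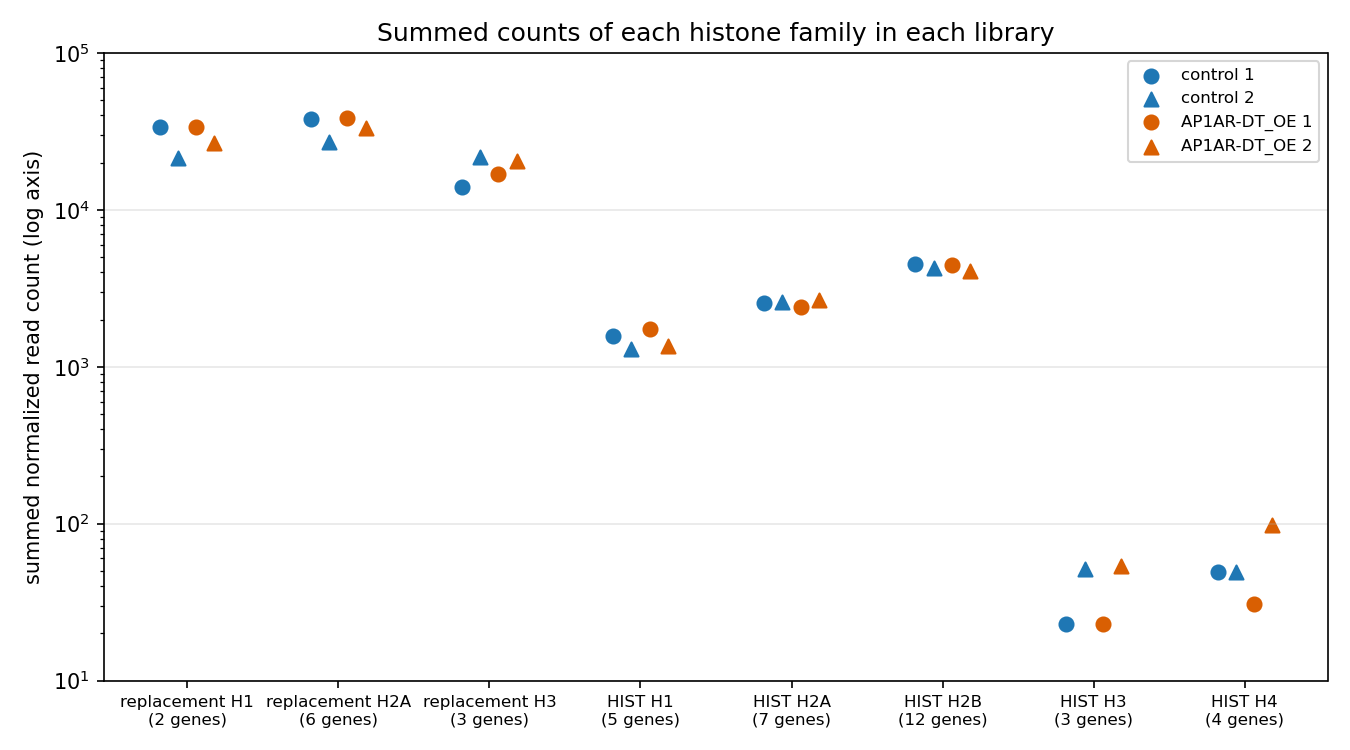
Summed normalized read count (log axis) of each histone family in each library, with the number of genes summed. The HIST H3 and H4 sums lie between 22.8 and 98.3, whereas the replacement H3 genes sum to between 13918 and 21847.

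The abundant HIST genes were set beside a background list of 12 genes known to give polyadenylated transcripts as well, 11 of which were in the table. The median of their mean normalized read counts was 400.1 and 7 of 11 reached 50, against a median of 9.30 and 2 of 20 for the other HIST genes. The other 20 include 3 genes classed as pseudogenes, against 0 in the list. In 5 of the 20 over 50% of the stretches as long as a read also occur in another gene, against 1 of the 11. The sets thus differ in more than polyadenylation. The list was also chosen with earlier results of these data known, so the contrast is not independent of them. The annotated transcript ends were set beside the levels as well. In 6 HIST genes (HIST3H2A, HIST2H2BE, HIST1H2AC, HIST1H4H, HIST3H2BB and HIST4H4) an annotated transcript runs at least 500 bases past the stem-loop, and their levels ranged from 8.18 to 1543 with a median of 416.2. In the 21 HIST genes where every annotated transcript that holds the stem-loop ends within 10 bases of it, levels ranged from 0.193 to 2267 with a median of 11.8. The ranges overlap widely, since HIST1H2BK and HIST1H1C belong to the second kind and HIST4H4 to the first. These are descriptions of normalized read counts over genes, which were not tested.

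In 5 cases a pair of HIST members stood back to back, on opposite strands with starts within 1000 bases, and levels within a pair could be far apart. HIST2H2BE and HIST2H2AC start 266 bases apart, and the mean level per kilobase of HIST2H2BE was 3.78 times that of HIST2H2AC. HIST3H2BB, whose start is 234 bases from that of HIST3H2A, had 21 and 10 counts in the controls and 7 in each AP1AR-DT_OE library, at or under 12 in 3 of the 4, so no exact fold is given, while HIST3H2A had 1416 counts or more. HIST1H2BC, 219 bases from HIST1H2AC, had 0 and 38 counts against 11 and 6, where HIST1H2AC had 511 or more, and every stretch of 150 bases in the HIST1H2BC transcript also occurs in another gene of the annotation, so its count is uncertain. HIST1H2BJ and HIST1H2AG differed by 1.08-fold per kilobase of canonical transcript, at 191 and 177, but with the longest transcript HIST1H2BJ stood at 96.3. HIST1H2BL and HIST1H2AI both had 30 counts or fewer in every library. A promoter of 300 bases (RefSeq, GRCh38.p14) was matched for 23 HIST genes and 9 replacement genes. The letters CCAAT, read on either strand, were found in 21 of the 23 HIST promoters (91.3%) and 6 of the 9 replacement promoters (66.7%), against 34.6% of 35116 promoters of the same length. The letters TATAAA, on either strand, were found in 65.2% and 44.4%, against 11.5% of all. These matches are letters in a window and no measure of binding.

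Among the replacement variants, H2A.X and H1.10 led. H2AFX at chr11:119093854-119095467, which encodes the variant that is phosphorylated at DNA breaks, had normalized read counts of 28202 and 15968 in the controls, against 27627 and 21146 in AP1AR-DT_OE. H1FX at chr3:129314771-129316286, which encodes the linker histone H1.10, had 25087 and 14154 against 23819 and 18819. In both genes the libraries numbered 1 were the higher ones, control 2 was the lowest, and the groups overlapped. They made up 53.7% of the replacement sum. H1F0, the gene of linker histone H1.0, had 8673 and 7373 against 9862 and 7959.

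The H2A variants other than H2A.X were lower. H2AFJ, the gene of H2A.J, had normalized read counts of 3919 and 2921 in the controls, against 3918 and 4009 in AP1AR-DT_OE. H2AFY, which encodes macroH2A, had 3363 and 3362 against 3646 and 3251, and its relative H2AFY2 had 942 and 953 against 953 and 894. The macroH2A genes spread little over the 4 libraries. The H2A.Z genes spread more. H2AFZ had 780 and 2096 against 1189 and 2113, and H2AFV had 847 and 1920 against 961 and 1646. In both, each library numbered 2 was higher than both libraries numbered 1.

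The H3.3 genes resemble each other and their pseudogenes in sequence. H3F3A and H3F3B encode the same H3.3 protein from different DNA, and H3F3C is an intronless copy related to H3F3B that encodes a variant known from testis. The first 90 coding bases are shown for the 3 genes, with the bases that differ from H3F3B in capitals.
H3F3B: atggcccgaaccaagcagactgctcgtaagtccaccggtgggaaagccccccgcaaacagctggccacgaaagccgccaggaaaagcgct
H3F3C: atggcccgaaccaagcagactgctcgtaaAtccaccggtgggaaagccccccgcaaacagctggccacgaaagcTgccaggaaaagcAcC
H3F3A: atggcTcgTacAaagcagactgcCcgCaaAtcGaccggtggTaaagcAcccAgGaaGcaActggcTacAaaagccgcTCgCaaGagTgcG

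Over the whole coding sequence H3F3C matched H3F3B at 397 of 411 aligned positions (96.6%), with 11 bases differing and 3 gap positions, whereas H3F3A matched it at 323 of 411 (78.6%). Between H3F3B and H3F3C transcripts 95.7% of 1121 aligned bases were identical, and no stretch of 150 bases, the read length, was identical. H3F3C at chr12:31791185-31792298 had normalized read counts of 8065 and 10366 in the controls, against 9137 and 9848 in AP1AR-DT_OE, and H3F3B at chr17:75776434-75785893 had 5157 and 9858 against 6983 and 8999. H3F3A at chr1:226061851-226072019 had 696 and 1624 against 847 and 1626, and 524 of its 921 stretches of 150 bases (56.9%) also occur in other genes, 262 of them in H3F3AP4. That pseudogene was left out by the rule, and it was counted more than H3F3A, with 4899 and 14534 counts against 6361 and 10669, where H3F3A had 611 and 2105 against 772 and 1638. How the counting shared reads between such copies is not stated, so the split between them is uncertain. Added together, H3F3B and H3F3C gave 13222 and 20223 against 16120 and 18847 normalized read counts, and H3F3A with H3F3AP4 gave 6276 and 12835 against 7824 and 12215. In each sum both libraries numbered 2 were above both libraries numbered 1. Among the HIST genes, over 50% of such stretches recur in another gene for HIST1H2BC, HIST2H2BD, HIST1H3D, HIST1H4J, HIST1H2AD and HIST1H2AI, all of low count. HIST1H2BK shared no whole stretch, although it is 98.9% identical over 447 bases to H2BFS. For H1FX 7.17% of its stretches are shared with the antisense gene H1FX-AS1.

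Levels were compared between genes per kilobase of canonical transcript, as mean normalized read counts over the 4 libraries. H2AFX was first at 14596 and H1FX next at 13503, and their ranges over the libraries overlapped. H3F3C followed at 8397, below both of them in every library, and H2AFJ at 5955 lay below H3F3C in the same way. The place of H3F3C is uncertain, since how reads were split between it and the similar H3F3B is not stated. The canonical transcripts also differ in length, at 1114 bases for H3F3C and 2705 for H3F3B. From H2AFJ down each neighbour in the order overlapped the next one as far as HIST2H2BE at 657.6, with HIST1H2BK at 4579, H1F0 at 3842, HIST3H2A at 3026, H3F3B at 2865, HIST1H1C at 2013, H2AFZ at 1784, H2AFY at 1777 and HIST1H2AC at 1551 on the way. The median per kilobase was 2865 for the replacement genes and 26.5 for the HIST genes, against 33.9 for all genes. The order depends on which transcript is taken: with the longest annotated transcript H2AFJ stood at 1188 and HIST3H2A at 955.5, while H2AFX, H1FX and H3F3C kept their values.

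The main question was whether raising AP1AR-DT changed histone mRNA. No histone gene was called between AP1AR-DT_OE and control, with 0 of 42 at an adjusted p under 0.05 in DESeq2 against 33 of 24014 genes over the table (0.137%). At an unadjusted p under 0.05 there were also 0 of 42, against 196 genes over the table (0.816%). The edgeR quasi-likelihood test called 0 of the 32 members that passed its expression filter, but at an adjusted p it called 0 of 17027 genes in all (0%), so its 0 says nothing about histone genes. At an unadjusted p under 0.05 it had 0 of the 32 members and 112 of all genes (0.658%). Of the 20 members that averaged 50 normalized read counts or more, 0 had groups that did not overlap. Over the 13298 genes at that level the share was 9.45%, 5.11% with AP1AR-DT_OE higher and 4.35% with it lower. At shares this low, few members or none would be expected among so few genes. These counts of 0 therefore do not set the histone genes apart from the table. Members averaging under 50 were left out of the count of overlaps for their low depth. Some of them had groups that did not overlap, mostly with AP1AR-DT_OE lower.

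The changes that were fitted for these 20 genes were small. The highest estimates, none of them past the test, were those of HIST2H2AC (Log2FC 0.22, SE 0.67), H2AFJ (0.21, SE 0.43) and H2AFZ (0.20, SE 0.56), and the lowest were those of HIST1H2AG (-0.18, SE 0.66), HIST1H2BJ (-0.17, SE 0.66) and H2AFV (-0.09, SE 0.54). The adjusted p of DESeq2 was 1.00 for every member. The 95% interval of the Log2FC ran from -0.77 to 1.06 for H2AFX, from -0.80 to 0.88 for H3F3C and from -0.86 to 0.82 for HIST1H2BK, so in this fit changes of less than about 1 on the log2 scale could not be told from none even in the most abundant members. This width depends on the fit: with a correction for GC content the SE went from 0.47 to 0.22 for H2AFX, from 0.43 to 0.23 for H3F3C and from 0.43 to 0.30 for HIST1H2BK, and these genes were still not called. The estimate for H2AFZ rested on single control libraries: it was 1.09 without control 2 (unadjusted p 0.0217, adjusted p 1.00 in DESeq2) and -0.35 without control 1. In the fit without control 2 it was the 1 member of 40 with an unadjusted p under 0.05, beside 507 of 22861 genes (2.22%). The median Log2FC was 0.09 for the replacement genes and -0.03 for the 9 HIST genes at this level, beside -0.02 for all genes at this level. Over the 24 HIST genes with a library above 12 counts it was -0.05 and over all 31 it was -0.07, beside -0.03 for all genes tested. The lowest unadjusted p of any member in DESeq2 was 0.226, for HIST2H3D. This gene had 12 and 12 counts in the controls, against 0 and 4 in AP1AR-DT_OE. All of these are at or under the 12 counts that a count of 0 allows, so no fold is given.

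**Figure D3:**
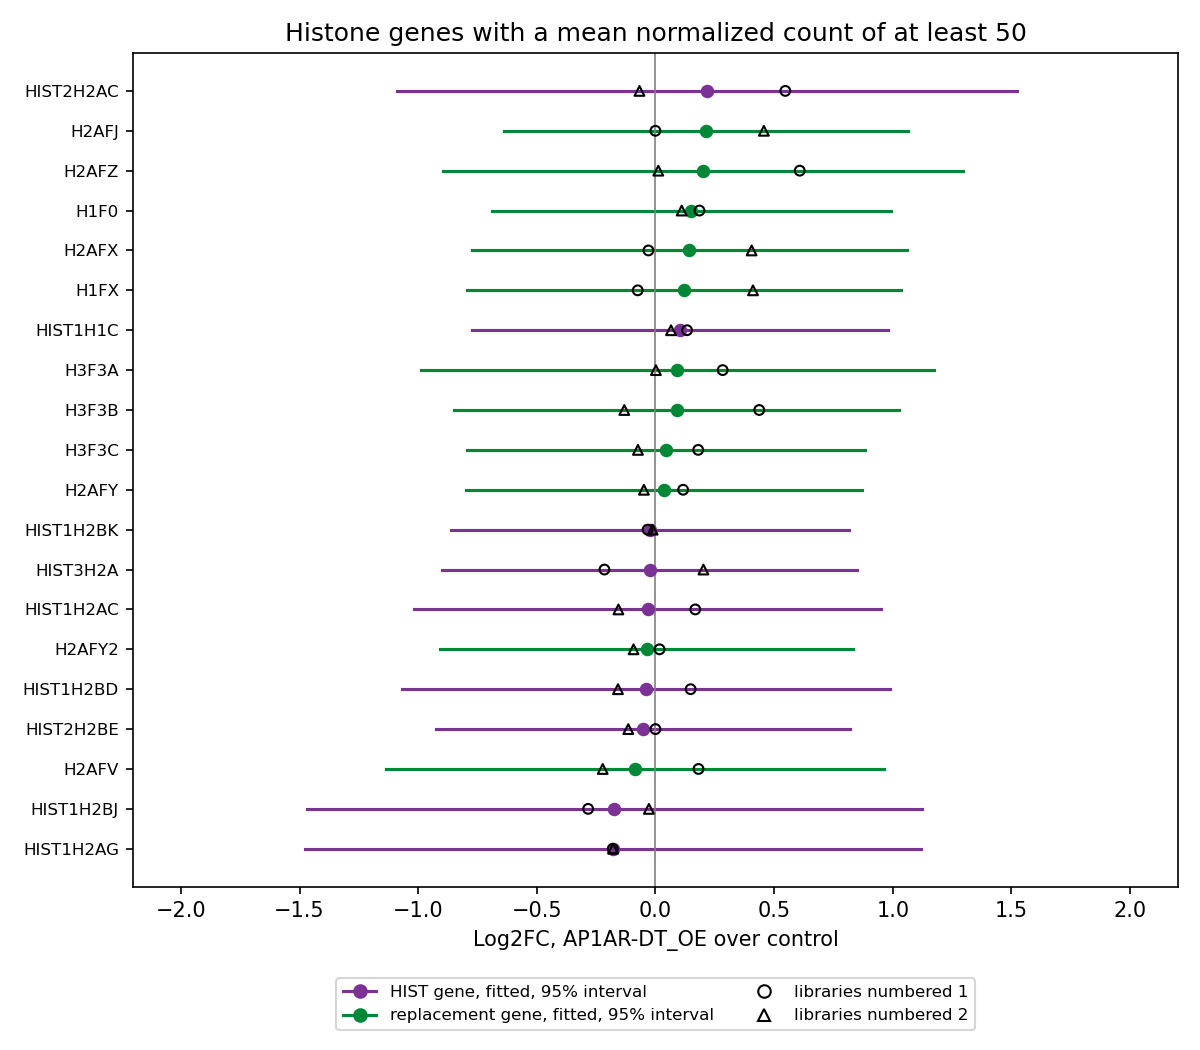
Log2FC of AP1AR-DT_OE over control for the 20 histone genes that averaged 50 normalized read counts or more. Filled points and lines give the DESeq2 estimate and its 95% interval, and open circles and triangles give the log2 ratio within the libraries numbered 1 and 2. All 20 intervals cross 0, and the estimates lie between -0.18 and 0.22.

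The libraries of a group differed from each other by more than the groups did, and the direction moved with the GC content of the transcript. Over 13284 genes Spearman's rho between GC content and the ratio of library 2 to library 1 was -0.77 in the controls and -0.65 in AP1AR-DT_OE. Among the 20 abundant histone genes it was -0.70 and -0.46, a description over genes that share the same libraries. The values over all genes used the GC content of the longest transcript and those for histone genes the canonical one, so they are not strictly alike. For 6 members with a GC content under 50% (H3F3A, H3F3B, H3F3C, H2AFV, H2AFZ and HIST2H2BE) the fold of control 2 over control 1 ran from 0.849 to 2.69 and that of AP1AR-DT_OE 2 over AP1AR-DT_OE 1 from 0.784 to 1.92, and 5 of 6 were higher in library 2 in each group, HIST2H2BE being the exception. For the 14 members at 50% or more the folds ran from 0.564 to 1.80 and from 0.765 to 1.43. The highest of these were those of HIST1H2AC, at 58.6% GC in its canonical transcript but 42.0% in its longest. Of the 20, H2AFZ had the widest gap, at 2.69-fold between the controls, while H1FX at 68.6% GC had 0.564-fold. In 16 of the 20 genes the difference between libraries exceeded the fitted group difference in both groups, and in 8 of the 20 the AP1AR-DT_OE library was on the same side of the control library within both numbers. The part of GC content in these differences was not tested for single genes.

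**Figure D4:**
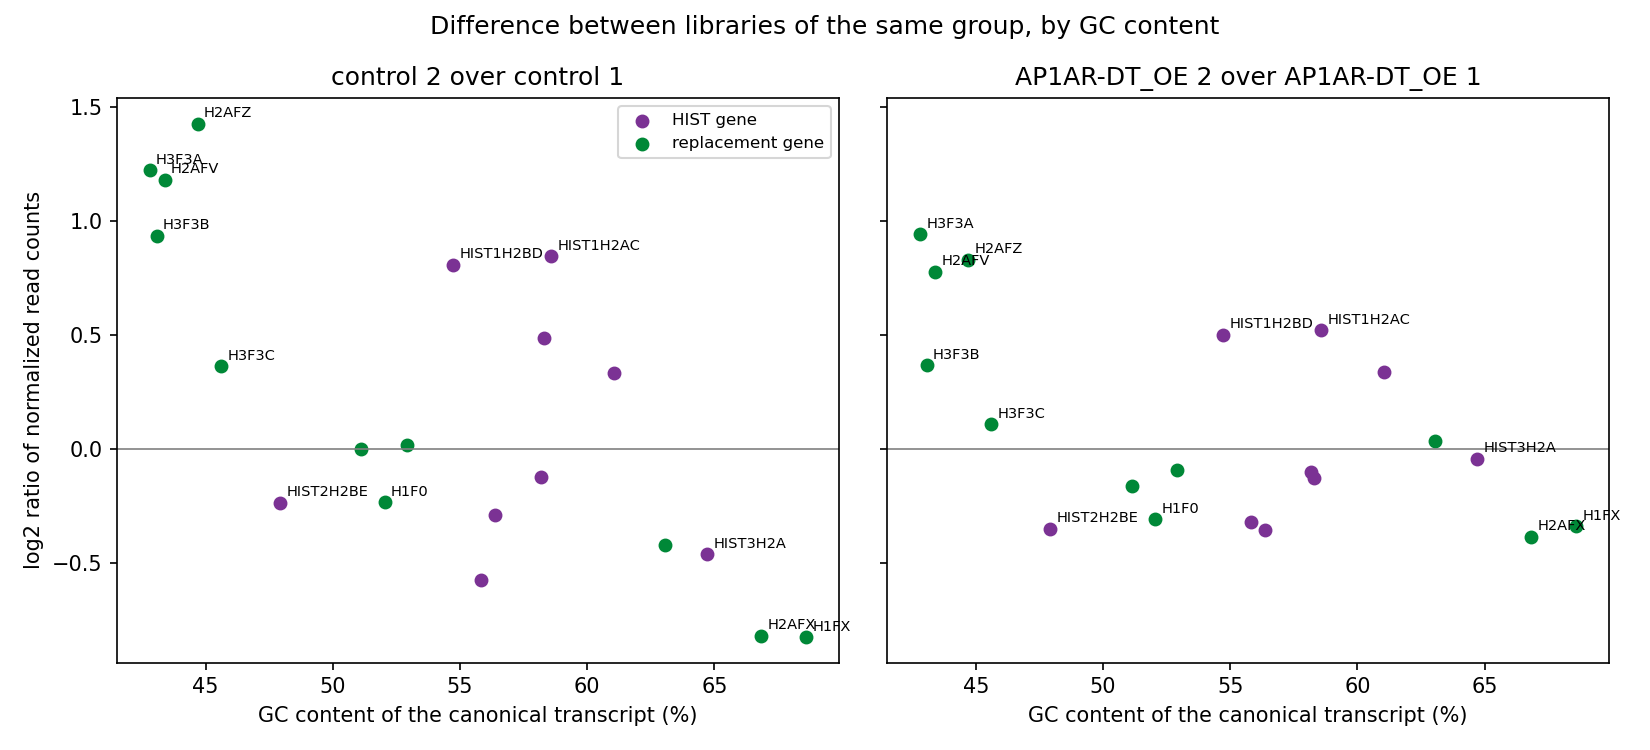
Log2 ratio of the normalized read counts of library 2 over library 1, in the controls on the left and AP1AR-DT_OE on the right, against the GC content of the canonical transcript in percent, for the 20 abundant histone genes. The H3.3 and H2A.Z genes, at 42.8% to 45.6% GC, lie above 0 in both panels, and H2AFX and H1FX, at 66.8% and 68.6%, lie below 0 in both.

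The genes that make, carry and use histones were described from lists. Over the whole table DESeq2 had 33 of 24014 genes (0.137%) at an adjusted p under 0.05 and 196 (0.816%) at an unadjusted p under 0.05. Of 20 factors of histone mRNA transcription and processing, 0 were called at an adjusted p under 0.05 in DESeq2 and 0 at an unadjusted p, with a median Log2FC of 0.00. SLBP had normalized read counts of 574 and 1198 in the controls, against 828 and 1007 in AP1AR-DT_OE (Log2FC 0.05, SE 0.51), with library 2 the higher one in each group, as for H3F3A. NPAT, which switches on the HIST clusters in S phase, had 29 and 110 counts against 19 and 59 (Log2FC -0.57, SE 0.90), and its groups overlapped. Of 28 histone chaperones and remodellers 0 were called and 1 had an unadjusted p under 0.05, with a median of -0.03. This was HJURP, the chaperone of the centromeric H3 variant, at 359 and 116 against 521 and 683 (Log2FC 1.34, SE 0.59, adjusted p 1.00 in DESeq2). Of 19 S phase genes found by symbol, 0 were called and 0 had an unadjusted p under 0.05, with a median Log2FC of 0.08. Among the mesenchymal markers 0 were called and PRRX1, a transcription factor of that state, had an unadjusted p under 0.05, at 2770 and 11358 against 1241 and 2246 (Log2FC -2.02, SE 0.61, adjusted p 0.43 in DESeq2), and no adrenergic marker had one.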

How the data were processed

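RNA-seq of 2 control and 2 AP1AR-DT_OE libraries of SK-N-SH cells gave the values used here. Per the study's methods, the authors aligned paired reads to hg19 with HISAT2, ran StringTie, and took read counts per gene with the script supplied with it. The submitters' processing notes name TopHat2 2.0.4, HTSeq, Cuffdiff and edgeR 2.6.12 instead. As deposited, the counts are whole numbers with totals that differ between libraries. They are not counts of read pairs, since about 4 counts stand for a pair, as judged from the low values. The strand setting and annotation are not given in the sources used here. Deposited columns with the authors' own DESeq2 and edgeR comparisons (fold changes and p-values) were not used.

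Counts were fitted over all 24014 genes with DESeq2 1.42.0 (R 4.3.3, Wald test, two-sided, group only, Benjamini-Hochberg adjustment, default independent filtering). Groups came from the titles. Normalized read counts are counts divided by size factors of 0.878 to 1.30, and n = 2 in each group. Alternatives were edgeR 4.0.16 with TMM factors, TMM factors in DESeq2, a count filter, a GC correction (lowess, span 0.3), a block on replicate number, counts divided by 4, no independent filtering, and leaving out each library. GC content, lengths, stem-loops and stretches of 150 bases came from GENCODE 44 on GRCh37, whose coordinates are not printed, and alignments from BLAST 2.17.0. GC content was that of the longest transcript over all genes and in the GC correction, and that of the canonical transcript where histone genes are described. Sequences of transcripts are GENCODE's and promoters are those of RefSeq. Intervals and the bound of 12 counts for a count of 0 cover counting error and the spread of 2 libraries only, since PCR reads are not independent molecules.

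Named were all replacement genes averaging 50 normalized read counts or more, the 3 most abundant genes of each HIST family, any member with an unadjusted p under 0.05, the 3 largest rises and 3 largest falls among members at that level, members shown for a sequence or a neighbour, SLBP, NPAT, and genes of the lists with an unadjusted p under 0.05. The members and lists were chosen with earlier results of these data known.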

Additional observations from a re-analysis of the deposited data

How the results depend on the processing

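Under every alternative run, in DESeq2 and edgeR alike, 0 histone genes had an adjusted p under 0.05, and at an unadjusted p the count was 0 except without control replicate 2, where it was 1 (H2AFZ, Log2FC 1.09 against 0.20, beside 507 of 22861 genes). Over the whole table the count of 33 called genes became 0 in edgeR (112 by unadjusted p), 55 with the GC correction, 60 with the GC correction and the replicate block, and 15 with counts divided by 4, and it ran from 45 to 90 when 1 library was left out, where the lone library is assumed to vary like the others. The cause was not tested. Of 329 values for 28 named histone genes under the alternatives, 0 passed the threshold, and the sign of the Log2FC changed 42 times in 22 genes.

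The median Log2FC of the replacement genes ran from -0.0467 to 0.0905 when 1 library was left out, turning below 0 when control replicate 1 (-0.0467) or AP1AR-DT_OE replicate 2 (-0.0038) was the one omitted, and that of the HIST genes ran from -0.33 (without AP1AR-DT_OE replicate 2) to -0.0523. The log2 ratio of the HIST sum to the replacement sum ran from -0.23 (control replicate 1 omitted) to -0.035 (control replicate 2 omitted) and from -0.14 to -0.11 under the other choices. With the replicate block the median of the replacement genes was 0.15 in DESeq2 and 0.14 in edgeR, a fit added after seeing the data, and 37 and 44 genes were called over the table, none of them a histone gene. The SE of the Log2FC narrowed with the block to 0.20 for H2AFX, 0.20 for H3F3C and 0.22 for HIST1H2BK, and with the GC correction as well to 0.11, 0.12 and 0.17. Samples of the same number deviated together (correlation 0.46 over 13284 genes), but the labels do not say what a number stands for and there are only 2 pairs, so this is a hint from the data. Depth limits 7 HIST genes, which stayed at or under 12 counts in every library.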
